A study of Mus musculus with 5 samples.

Results

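The genes described are the mouse translation initiation factors: all protein-coding genes whose symbol begins with Eif1, Eif2, Eif3, Eif4, Eif5 or Eif6, with the exception of Eif4ebp1. They number 54 of the 49341 genes with a value in the series. Their RNA was measured in bone marrow-derived macrophages from wild-type C57BL/6 mice, differentiated for 6 days. CBR-5884 blocks PHGDH, an enzyme that makes serine. The cells received 30 µM of it, or solvent, before 10 ng/ml interleukin 4 (IL-4), and were harvested after 24 h with IL-4. There were 3 libraries with CBR-5884 (replicates 3, 4 and 5) and 2 with solvent (replicates 3 and 5), and every library had received IL-4. The comparison of CBR-5884 with solvent asks how the inhibitor changes the RNA of macrophages that respond to IL-4. Whether the replicates are separate animals or cultures is not in the labels, so each p-value reflects the spread among these 5 libraries, which may be technical. Differentiation used CSF1 or conditioned supernatant of L929 cells, and which of them each library had is not stated.

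Initiation factors bring the ribosome to the start codon of a messenger RNA. The factor eIF2 carries the initiator methionyl-tRNA to the small ribosomal subunit and is recharged with GTP by eIF2B, eIF3 holds the preinitiation complex together, and the eIF4 factors recognise the cap and unwind the leader. Stress kinases phosphorylate the alpha subunit of eIF2, which blocks eIF2B and lowers protein synthesis. The kinase complex mTORC1 controls cap recognition through proteins that bind eIF4E. Macrophages use both routes to set protein output when nutrients or signals change.

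The cells carried macrophage markers in every library. The 7 markers listed (Adgre1, Itgam, Csf1r, Cd68, Mertk, Fcgr1 and Lyz2) summed to 9728 to 13060 FPKM with CBR-5884, against 10990 to 13070 FPKM with solvent. FPKM counts the fragments of a transcript per kilobase of its length, relative to all fragments mapped. The 6 T cell markers summed to at most 0.466 FPKM with CBR-5884 and 0.479 FPKM with solvent, and Cd3d, Cd3e and Cd3g were at 0 in all 5 libraries. The 4 B cell and 4 erythroid markers summed to under 1 FPKM in every library. The 7 neutrophil markers summed to 10.4 to 13.4 FPKM with CBR-5884, against 10.5 to 21.5 FPKM with solvent, and Ly6g was at 0 in all 5. The 5 fibroblast markers summed to 10.8 to 17.1 FPKM with CBR-5884, against 17.9 to 18.9 FPKM with solvent, with every CBR-5884 library below both solvent libraries; their part in the values below was not tested. The 4 dendritic cell markers, of which Itgax alone had a mean of at least 1 FPKM, summed to 328 to 433 FPKM with CBR-5884, against 425 to 426 FPKM with solvent. Coverage divided by FPKM implies a depth of 30230000 to 30700000 fragments with CBR-5884, against 28310000 to 28850000 with solvent. In bulk RNA, fewer cells of a type and less RNA per cell cannot be told apart.

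Initiation factor RNA was abundant under both conditions, and no gene passed the test between them. Of the 54 genes, 50 had a mean of at least 1 FPKM over the 5 libraries and were tested. Their median level was 42.5 FPKM, against 11.4 FPKM for all 10770 genes tested, and 19 of them were at 50 FPKM or more. Eif5a, Eif4a1, Eif4g2, Eif3k and Eif1 stood highest, in that order. Eif2b4 aside, the ratio of group means, CBR-5884 over solvent, ran between 0.744 for Eif3k and 1.70 for Eif4ebp2. Of the 4 genes not tested, Eif2s3y, Eif4e1b and Eif4ebp3 were listed at 0 in all 5 libraries and Eif3j2 did not exceed 0.028 FPKM.

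**Figure D1:**
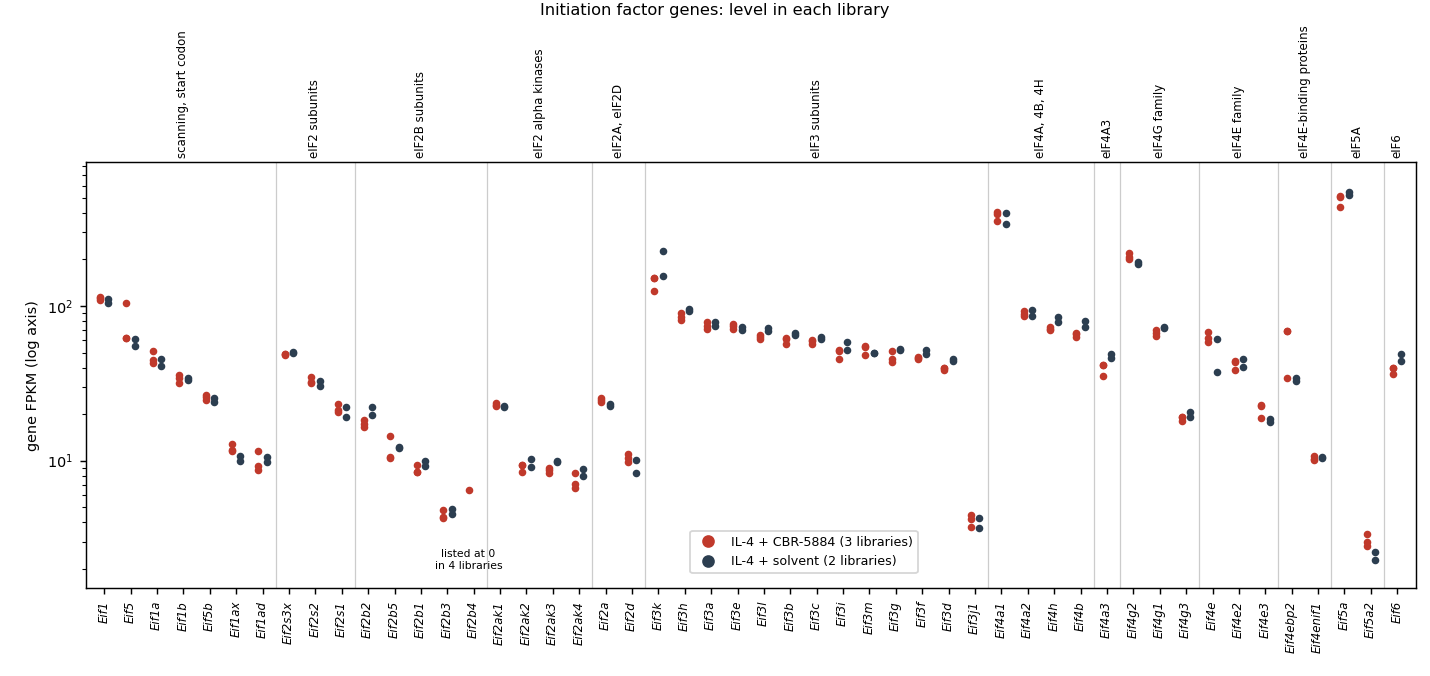
Gene level of the 50 tested initiation factor genes in each library (FPKM, log axis), arranged by role; red points are the 3 libraries with CBR-5884 and dark points the 2 with solvent. In most genes the CBR-5884 and solvent points overlap or lie close together, Eif5a and Eif4a1 stand highest, and single libraries of Eif5, Eif4ebp2, Eif4e and Eif3k lie apart from the rest of their group. Eif2b4 was listed at 0 in 4 libraries, which the log axis cannot show.

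None of the 50 tested genes was called by limma at an adjusted p below 0.05, and the smallest adjusted p was 0.155, for Eif3d. Over all genes tested, 24 of 10770 were called (0.223%), 5 higher and 19 lower; without solvent replicate 3 the number was 89, and without solvent replicate 5 it was 66. At an unadjusted limma p below 0.05 there were 10 of the 50 genes (20%), 1 higher and 9 lower with CBR-5884. The shares over all genes tested were 19.6% in either direction, 7.24% higher and 12.4% lower. The count for the initiation factors was thus close to the background. Fold changes are log2 differences of FPKM + 1, CBR-5884 minus solvent, with limma's standard error (SE), and understate the change of low genes. The median over the 50 was -0.029, against -0.031 for all genes tested, with 21 positive and 29 negative (58%, against 55.7% of all genes tested). The 21 include Eif2b4, which was listed at 0 in 4 libraries and passed the filter through CBR-5884 replicate 5 alone. The balance changed with the scaling: it was 26 positive and 24 negative on the TPM scale and with median-ratio scaling, and 27 and 23 after quantile normalization. The genes at an unadjusted p below 0.05 then numbered 4 higher and 5 lower, 4 and 6, and 4 and 3 in those same settings. In either direction the shares over all genes tested were 18.5%, 19.4% and 19.6% there. Without solvent replicate 3 the median over the initiation factors was -0.055, against -0.032 for all genes tested.

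All 3 CBR-5884 libraries lay below both solvent libraries for 19 of the 50 genes (38%), against 24.9% of all genes tested. All 3 lay above both solvent libraries for 7 genes (14%), against 16.6%. Of the 19, 9 were subunits of eIF3. The other 10 were Eif2s3x, Eif2b2, Eif2ak3, Eif4b, Eif4h, Eif4a3, Eif4g1, Eif4g3, Eif5a and Eif6. The 7 were Eif1ax, Eif2a, Eif4e3, Eif4ebp2, Eif4g2, Eif5 and Eif5a2.

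**Figure D2:**
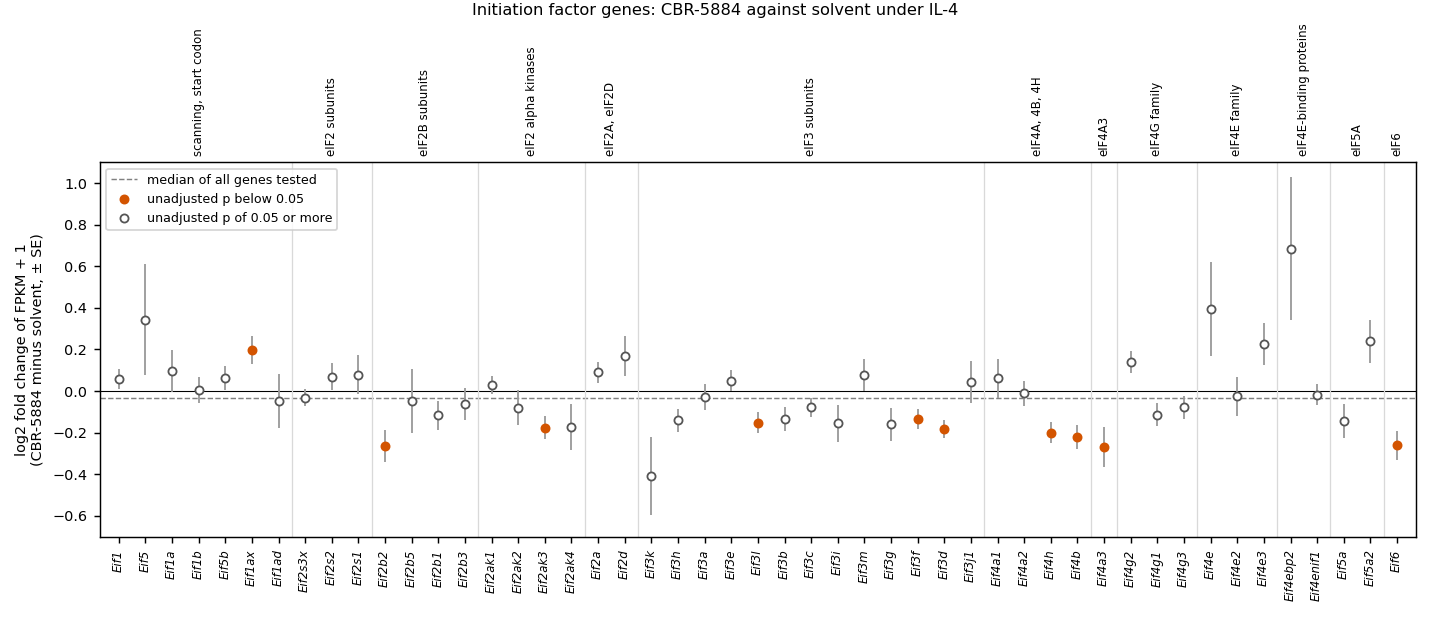
Log2 fold change of FPKM + 1 (CBR-5884 minus solvent, with SE) of 49 tested initiation factor genes by role; filled points have an unadjusted limma p below 0.05 and none passed after adjustment. Eif4b, Eif4h, Eif4a3, Eif6 and 10 of the 13 subunits of eIF3 lie below 0, while Eif4ebp2, Eif4e and Eif5 have the largest positive values and the longest error bars. Eif2b4 is not drawn because it was listed at 0 in both solvent libraries.

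The genes at an unadjusted p below 0.05 are shown by the sequence around their RefSeq start site, since messenger RNAs of the translation apparatus are known for a pyrimidine tract at their 5′ end through which mTORC1 controls their translation. RefSeq promoter entries (GRCm38.p6) matched 43 of the 54 genes and 9 of these 10; no entry was matched for Eif6. Each line gives 20 bases before and 20 bases from the start, 5′ to 3′ on the strand of the gene. Capitals mark a C followed by at least 5 bases that are each C or T, when the run begins within the 10 bases on either side of the start on that strand.
Eif3f (chr7:108934395-108934434, plus strand): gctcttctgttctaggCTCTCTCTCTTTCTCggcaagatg
Eif3l (chr15:79075203-79075242, plus strand): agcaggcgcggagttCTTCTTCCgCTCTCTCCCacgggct
Eif3d (chr15:77970805-77970844, minus strand): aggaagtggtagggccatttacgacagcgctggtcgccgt
Eif2b2 (chr12:85219461-85219500, plus strand): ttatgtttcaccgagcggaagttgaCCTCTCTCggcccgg
Eif2ak3 (chr6:70844495-70844534, plus strand): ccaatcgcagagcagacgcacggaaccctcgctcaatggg
Eif4b (chr15:102073753-102073792, plus strand): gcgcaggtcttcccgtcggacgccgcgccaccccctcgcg
Eif4h (chr5:134639390-134639429, minus strand): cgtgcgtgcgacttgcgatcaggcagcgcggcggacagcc
Eif4a3 (chr11:119300024-119300063, minus strand): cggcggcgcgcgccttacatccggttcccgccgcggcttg
Eif1ax (chrX:159372158-159372197, plus strand): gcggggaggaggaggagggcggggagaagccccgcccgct
Such a run was found in 3 of these 9 entries (33.3%). Counted by gene, as these 9 are, it was found in 8 of the 43 initiation factor genes with an entry (18.6%). Counted by entry, it was found in 9 of the 56 entries of the initiation factor genes (16.1%), against 5611 of all 32851 promoter entries (17.1%). Other start sites of these genes were not searched.

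The eIF3 complex is the large scaffold that binds the small ribosomal subunit and recruits messenger RNA. Of its 14 genes 13 were tested: 10 were negative (against 55.7% of all genes tested) and 3 positive, the median log2 fold change was -0.14, and none was called. Without scaling between libraries, all 3 CBR-5884 libraries lay below both solvent libraries for 9 of the 13, against 24.9% of all genes tested. The median was -0.093 on the TPM scale, -0.10 with median-ratio scaling and -0.096 after quantile normalization, and 9 of 13 were negative in each. Mean levels ran between 4.06 FPKM for Eif3j1 and 162 FPKM for Eif3k, around a median of 60.2 FPKM.

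Eif3d, which encodes the cap-binding subunit, had the smallest p of all initiation factor genes. It was at 38.4, 39.7 and 39.6 FPKM in CBR-5884 replicates 3, 4 and 5, against 44.1 and 45.2 FPKM in solvent replicates 3 and 5. The groups did not overlap (39.2 ± 0.715 and 44.7 ± 0.8004 FPKM; SD, n = 3 and 2). Limma gave a log2 fold change of -0.18 (SE 0.044) and an adjusted p of 0.155. In CBR-5884 replicate 3 and solvent replicate 5 most of this value came from transcripts that Cufflinks assembled (71.3% and 77.2%), and with reference transcripts only the log2 fold change was 0.26 (SE 0.89). Exons of Eif3d overlap those of Gm17638 on the opposite strand by 2151 nt, and whether the estimates used strand is not stated in the sources used here.

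Eif3l was at 61.2, 65.2 and 63.3 FPKM with CBR-5884, against 69.1 and 71.7 FPKM with solvent (limma log2 fold change -0.15, SE 0.050, adjusted p = 0.219). Eif3f, one of the MPN domain subunits, was at 46.7, 45.4 and 46.0 FPKM with CBR-5884, against 52.3 and 49.1 FPKM with solvent (limma log2 fold change -0.14, SE 0.049, adjusted p = 0.245). In both genes every CBR-5884 library was below every solvent library, by a small margin. Eif3f starts with the longest pyrimidine run among the sequences above.

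Of the core subunits, Eif3a, the largest, was at 71.5, 78.9 and 74.0 FPKM with CBR-5884, against 74.0 and 78.4 FPKM with solvent, with overlapping groups. Eif3b, which anchors the subunits Eif3g and Eif3i, was at 56.7, 62.3 and 60.9 FPKM with CBR-5884, against 66.8 and 65.1 FPKM with solvent (limma adjusted p = 0.297). Eif3c was at 57.1, 60.4 and 59.2 FPKM with CBR-5884, against 62.8 and 61.6 FPKM with solvent (limma adjusted p = 0.419). Eif3b and Eif3c were lower in every CBR-5884 library than in either solvent library.

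Among the other subunits, the log2 fold change was -0.16 for Eif3g, -0.14 for Eif3h and -0.16 for Eif3i, and the adjusted p from limma was 0.351, 0.273 and 0.394. For Eif3e and Eif3m, which carry PCI domains, it was 0.050 and 0.076, with overlapping groups. Eif3j1, a loosely bound subunit, was at 4.18, 4.47 and 3.72 FPKM with CBR-5884, against 3.69 and 4.25 FPKM with solvent. Its copy Eif3j2 was at 0, 0 and 0.014 FPKM with CBR-5884, against 0.013 and 0.028 FPKM with solvent. Of the 75-base windows of Eif3j1, 37.7% also occur in transcripts of another gene, most often Eif3j2, so reads of the pair may have been divided between them.

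Eif3k, one of the smallest subunits, was at 125, 151 and 151 FPKM with CBR-5884, against 157 and 225 FPKM with solvent. Its log2 fold change of -0.41 (SE 0.19, limma adjusted p = 0.325) rested on solvent replicate 5: without that library it was -0.15, and without solvent replicate 3 it was -0.67. In solvent replicate 5, 99.1 of its 225 FPKM came from an assembled piece of 355 nt, beside 126 FPKM of the reference transcript Eif3k-201. When each transcript was weighted by its length, so that a short piece counted only for the bases it covers, Eif3k was at 141, 153 and 153 with CBR-5884 and 169 and 194 with solvent, in FPKM units. Limma then gave a log2 fold change of -0.28 (SE 0.079) and an adjusted p of 0.129.

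The helicase eIF4A and its helpers eIF4B and eIF4H unwind the leader of the messenger RNA; of these 4 genes 1 had a positive and 3 a negative log2 fold change, and none was called. Eif4a1, the main helicase, was at 393, 357 and 403 FPKM with CBR-5884, against 341 and 397 FPKM with solvent, with overlapping groups (limma log2 fold change 0.061, SE 0.093, adjusted p = 0.741). Its reference transcript Eif4a1-213 was at 334, 357 and 336 FPKM with CBR-5884, against 341 and 346 FPKM with solvent. Of its 75-base windows, 62.9% also occur in transcripts of other genes, most often the pseudogene Eif4a-ps4. Eif4a2, the second helicase, was at 86.3, 89.4 and 92.4 FPKM with CBR-5884, against 86.5 and 93.7 FPKM with solvent (limma log2 fold change -0.011, SE 0.059, adjusted p = 0.932).

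RNA of both helpers was lower in every CBR-5884 library than in either solvent library, although neither gene passed the test and this did not hold for Eif4b with reference transcripts only. Eif4b was at 66.7, 63.3 and 65.8 FPKM with CBR-5884, against 79.5 and 72.9 FPKM with solvent (limma log2 fold change -0.22, SE 0.058, adjusted p = 0.174). In solvent replicate 3, 21.7% of it came from an assembled transcript. Transcript Eif4b-201 alone was at 66.7, 63.3 and 65.8 FPKM with CBR-5884, against 62.3 and 72.9 FPKM with solvent, with overlapping groups and a log2 fold change of -0.046. Eif4h was at 70.5, 72.9 and 71.1 FPKM with CBR-5884, against 85.2 and 79.3 FPKM with solvent (limma log2 fold change -0.20, SE 0.051, adjusted p = 0.168). Transcript Eif4h-201 was at 52.0, 49.5 and 50.1 FPKM with CBR-5884, against 62.3 and 58.2 FPKM with solvent. Transcript Eif4h-205 was at 18.5, 23.4 and 20.9 FPKM with CBR-5884, against 22.9 and 21.1 FPKM with solvent, where the groups overlapped. Whether the transcripts differed from each other in their change was not tested.

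Eif4a3, a related helicase that marks exon junctions instead of unwinding leaders, was at 35.0, 41.8 and 41.3 FPKM with CBR-5884, against 49.1 and 46.0 FPKM with solvent. The groups did not overlap, and limma gave a log2 fold change of -0.27 (SE 0.097) and an adjusted p of 0.244. With reference transcripts only it was -0.64. In CBR-5884 replicate 5, 54.6% of the value came from an assembled transcript, while no other library had any.

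The eIF4G scaffolds link the cap-binding protein to the ribosome, and Eif4g2 encodes a relative that lacks the site for eIF4E. Eif4g2 was at 208, 219 and 199.9 FPKM with CBR-5884, against 187 and 192 FPKM with solvent (limma log2 fold change 0.14, SE 0.055, adjusted p = 0.27). Eif4g1, the main scaffold, was at 64.0, 70.3 and 66.5 FPKM with CBR-5884, against 72.3 and 72.7 FPKM with solvent (limma log2 fold change -0.11, SE 0.056, adjusted p = 0.347). The summed levels of each gene did not overlap between the groups, higher with CBR-5884 for Eif4g2 and lower for Eif4g1. Of the level of Eif4g1, however, 57.9% to 79.8% with CBR-5884 and 63.6% and 100% with solvent came from assembled transcripts, and its log2 fold change was 1.91 with reference transcripts only. Eif4g3 was at 19.1, 18.2 and 19.1 FPKM with CBR-5884, against 20.5 and 19.2 FPKM with solvent (limma adjusted p = 0.478).

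A ratio of 2 genes within a library does not depend on the scaling between libraries, and 7 such ratios were computed, outside the planned tests. Eif4g2 over Eif4g1 was 3.25, 3.11 and 3.005 with CBR-5884 and 2.59 and 2.64 with solvent. The ratio was higher in every CBR-5884 library, and the 2-sided exact permutation test on its log2 value gave p = 0.1, the smallest p that 3 libraries against 2 allow. Eif5a over Eif5a2 was 156, 152 and 170 (mean 159) with CBR-5884 and 228 and 213 (mean 221) with solvent, also at the smallest exact permutation p of 0.1. With each transcript weighted by its length, both kept their direction without overlap. The Eif4g2 over Eif4g1 ratio rests on assembled transcripts, which gave 100% of Eif4g1 in solvent replicate 3. With reference transcripts only the log2 fold change was 1.91 for Eif4g1 and 0.14 for Eif4g2, and no ratio was computed. Eif4a1 over Eif4a2, Eif1 over Eif1b, Eif1a over Eif1ax, Eif2s1 over Eif2s2 and Eif4e over Eif4ebp2 overlapped between the groups (exact permutation p = 0.4, 0.7, 0.4, 0.9 and 0.5). Eif4e over Eif4ebp2 depended on the scale: weighted by length it was 1.231, 1.427 and 1.196 with CBR-5884, against 0.982 and 1.18 with solvent, without overlap (exact permutation p = 0.1). No ratio could pass a threshold of 0.05 in this design, before or after adjustment over the 7.

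**Figure D3:**
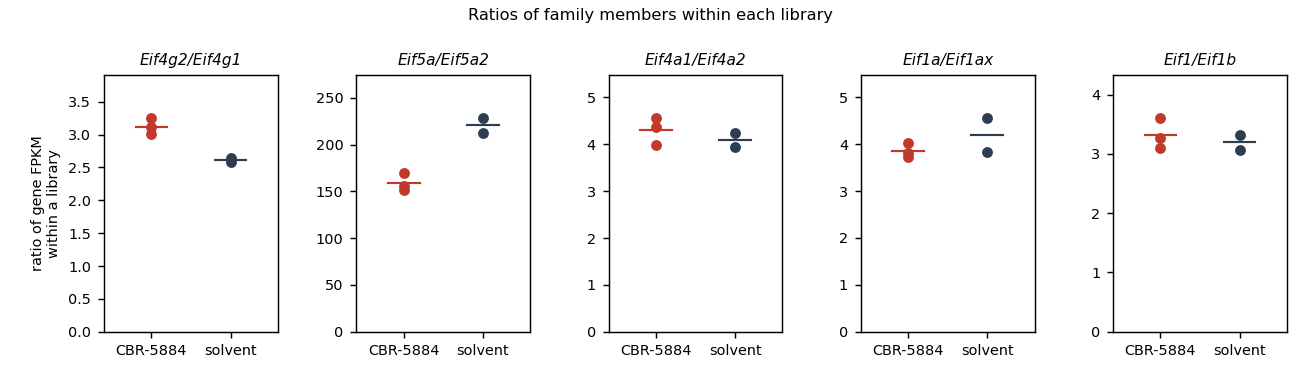
Ratio of the FPKM of 2 family members within each library; red points are the 3 CBR-5884 libraries, dark points the 2 solvent libraries and bars the group means. The Eif4g2/Eif4g1 ratio lies at 3.005 to 3.25 with CBR-5884, against 2.59 to 2.64 with solvent, the Eif5a/Eif5a2 ratio lies lower with CBR-5884, and the other 3 ratios drawn overlap.

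The cap-binding protein eIF4E and the proteins that bind it included Eif4ebp2 and Eif4e, each with libraries that stood apart within a group. Eif4e was at 62.3, 68.1 and 58.6 FPKM with CBR-5884, against 37.2 and 60.8 FPKM with solvent (limma log2 fold change 0.39, SE 0.22, adjusted p = 0.401). The log2 fold change was 0.047 without solvent replicate 3 and 0.74 without solvent replicate 5. Solvent replicate 3 was the low library, and there transcript Eif4e-206, of 526 nt, was listed at 0, against 25.9 FPKM in solvent replicate 5 and 28.8 to 30.3 FPKM with CBR-5884. Weighted by transcript length, Eif4e was at 58.5, 65.5 and 58.1 with CBR-5884 and 46.5 and 58.4 with solvent, and the groups overlapped. Eif4e2, a cap-binding homologue that represses translation, was at 38.5, 43.7 and 44.1 FPKM with CBR-5884, against 40.2 and 45.5 FPKM with solvent. Eif4e3 was at 19.0, 22.6 and 23.0 FPKM with CBR-5884, against 17.7 and 18.6 FPKM with solvent, without overlap (limma log2 fold change 0.23, SE 0.10, adjusted p = 0.308).

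Eif4ebp2 encodes an inhibitor that holds eIF4E until mTORC1 phosphorylates it. Summed over transcripts it was at 68.7, 68.5 and 34.4 FPKM with CBR-5884, against 32.9 and 34.3 FPKM with solvent (limma log2 fold change 0.68, SE 0.34, adjusted p = 0.356). Replicates 3 and 4 with CBR-5884 were high, and replicate 5 lay at the level of the solvent libraries. In these libraries the locus was represented by 2 transcripts, the reference Eif4ebp2-201 of 1786 nt at 34.7 and 35.1 FPKM and an assembled 3′ piece of 3944 and 3800 nt at 34.1 and 33.3 FPKM. In the other 3 libraries a single assembled transcript of 5829 to 5948 nt covered the locus at 32.9 to 34.4 FPKM. Weighted by length, Eif4ebp2 was at 47.6, 45.9 and 48.6 with CBR-5884 and 47.3 and 49.5 with solvent, in FPKM units. The groups then overlapped, with a log2 fold change of -0.030 (SE 0.047, limma adjusted p = 0.722). Eif4enif1, which carries eIF4E into the nucleus, was at 10.0, 10.7 and 10.3 FPKM with CBR-5884, against 10.5 and 10.4 FPKM with solvent.

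**Figure D4:**
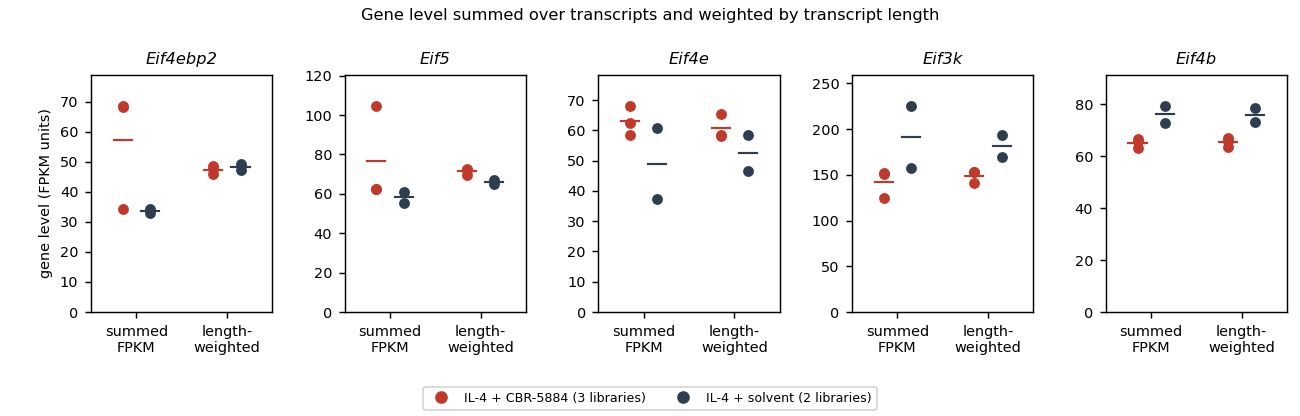
Level of 5 genes in each library as the sum of FPKM over transcripts and with each transcript weighted by its length; red points are CBR-5884 libraries, dark points solvent libraries and bars group means. The upper CBR-5884 points of Eif4ebp2 at 68.7 and 68.5 and of Eif5 at 105 fall into their group once weighted, while Eif4b is lower with CBR-5884 on both scales drawn, which do not include reference transcripts alone.

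Genes of scanning and start codon choice had mostly positive values. Of 7 tested, 6 were positive, the median log2 fold change was 0.064, and none was called. The median was 0.028 without solvent replicate 3 and 0.096 without CBR-5884 replicate 3, and quantile normalization gave 0.12 and the TPM scale 0.11. Eif1, which guards the choice of the start codon, was at 110.1, 115 and 112 FPKM with CBR-5884, against 105 and 110.5 FPKM with solvent (limma log2 fold change 0.059, SE 0.047, adjusted p = 0.535). Eif1b, its close copy, was at 35.6, 31.9 and 34.3 FPKM with CBR-5884, against 34.3 and 33.2 FPKM with solvent. Both genes overlapped between the groups.

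The eIF1A protein, which opens the scanning complex, comes from 2 genes in mice. Eif1ax was at 11.8, 12.8 and 11.5 FPKM with CBR-5884, against 9.97 and 10.7 FPKM with solvent, and was the 1 gene higher at an unadjusted p below 0.05 (limma log2 fold change 0.20, SE 0.068, adjusted p = 0.234). Its groups did not overlap. Eif1a was at 45.0, 51.4 and 42.8 FPKM with CBR-5884, against 45.4 and 41.2 FPKM with solvent (limma log2 fold change 0.096, SE 0.099, adjusted p = 0.632).

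Eif5, which makes eIF2 hydrolyse its GTP at the start codon, was at 62.3, 62.3 and 105 FPKM with CBR-5884, against 55.5 and 61.0 FPKM with solvent (limma log2 fold change 0.34, SE 0.27, adjusted p = 0.52). Replicate 5 with CBR-5884 stood apart, and 40.9 of its FPKM came from an assembled piece of 238 nt. Exons of Eif5 overlap those of Snora28 on the same strand by 127 nt, and whether the piece stems from it was not tested. Weighted by length, Eif5 was at 71.8, 72.8 and 69.5 with CBR-5884 and 64.9 and 66.8 with solvent (limma log2 fold change 0.11, SE 0.042, adjusted p = 0.189). The groups did not overlap on either scale. Eif5b, which joins the ribosomal subunits, had a log2 fold change of 0.064 (SE 0.058), and Eif1ad, an eIF1A-like gene, -0.050 (SE 0.13), both with overlapping groups.

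The genes of eIF2 itself gave small differences, and none was called. Eif2s1, the alpha subunit that stress kinases phosphorylate, was at 20.7, 23.4 and 21.2 FPKM with CBR-5884, against 19.0 and 22.1 FPKM with solvent. Eif2s2, the beta subunit, was at 34.8, 32.2 and 31.8 FPKM with CBR-5884, against 30.2 and 32.5 FPKM with solvent (limma adjusted p = 0.604). Eif2s3x, the X-linked gamma subunit that binds GTP, was at 48.5, 49.1 and 48.8 FPKM with CBR-5884, against 50.2 and 49.5 FPKM with solvent (limma log2 fold change -0.031, SE 0.040, adjusted p = 0.689). The order Eif2s3x, Eif2s2, Eif2s1 held in every library. The Y-linked copy Eif2s3y was listed at 0 in all 5 libraries, as were the Y-linked genes Ddx3y and Uty. The Y-linked gene Kdm5d was listed at 0.025, 0.037 and 0.012 FPKM with CBR-5884, against 0.025 and 0.021 FPKM with solvent. Xist was at 41.3 to 50.1 FPKM with CBR-5884, against 47.5 to 55.1 FPKM with solvent.

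The exchange factor eIF2B recharges eIF2 with GTP. Of its 5 genes 1 was positive and 4 negative, and none was called. The positive gene was Eif2b4, whose mean of 1.29 FPKM passed the filter through CBR-5884 replicate 5 alone, so its sign carries no weight. Eif2b2, its beta subunit, was at 16.5, 17.2 and 18.2 FPKM with CBR-5884, against 19.7 and 22.2 FPKM with solvent, without overlap (limma log2 fold change -0.26, SE 0.077, adjusted p = 0.192). Eif2b5, the catalytic subunit, was at 10.5, 14.4 and 10.5 FPKM with CBR-5884, against 12.0 and 12.3 FPKM with solvent. Eif2b1 and Eif2b3 had log2 fold changes of -0.12 and -0.062, and the groups of each overlapped. Eif2b4 was listed at 0 in CBR-5884 replicates 3 and 4, at 6.47 FPKM in replicate 5 and at 0 in both solvent libraries. A value of exactly 0 in these files can be a failed estimate, so no fold is given; exons of Eif2b4 overlap those of Snx17 on the opposite strand by 204 nt.

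The 4 kinases that phosphorylate eIF2 alpha respond to different stresses; 1 was positive and 3 negative, and none was called. Eif2ak1, the heme-regulated kinase, was at 22.5, 23.5 and 22.9 FPKM with CBR-5884, against 22.3 and 22.6 FPKM with solvent (limma log2 fold change 0.030, SE 0.045, adjusted p = 0.739). Eif2ak3, the kinase of the endoplasmic reticulum stress response known as PERK, was at 9.001, 8.30 and 8.65 FPKM with CBR-5884, against 9.84 and 9.97 FPKM with solvent, without overlap (limma log2 fold change -0.18, SE 0.055, adjusted p = 0.211). Of its level in solvent replicate 3, 17.8% came from an assembled transcript. Transcript Eif2ak3-201 alone was at 8.08 FPKM there, below every CBR-5884 library, and with reference transcripts only the log2 fold change was -0.049. Eif2ak4, the amino acid sensor GCN2, was at 8.33, 7.03 and 6.66 FPKM with CBR-5884, against 8.84 and 7.92 FPKM with solvent (limma log2 fold change -0.17, SE 0.11, adjusted p = 0.442). Eif2ak2, the kinase activated by double-stranded RNA, was at 9.38, 8.46 and 9.44 FPKM with CBR-5884, against 9.04 and 10.3 FPKM with solvent. Of the 4, the groups overlapped in Eif2ak1, Eif2ak2 and Eif2ak4.

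Eif2a and Eif2d encode proteins that can bring initiator tRNA to the ribosome without eIF2. Eif2a was at 25.5, 23.8 and 24.5 FPKM with CBR-5884, against 23.4 and 22.7 FPKM with solvent, without overlap (limma log2 fold change 0.091, SE 0.051, adjusted p = 0.394). Eif2d was at 9.87, 10.4 and 10.98 FPKM with CBR-5884, against 8.33 and 10.1 FPKM with solvent (limma log2 fold change 0.17, SE 0.097, adjusted p = 0.409), and its groups overlapped.

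Eif5a and Eif6 act at the edges of initiation. Eif5a, which carries the modified residue hypusine and helps peptide bonds form, was the most abundant gene of the set, at 439.8, 512 and 503 FPKM with CBR-5884, against 523 and 547 FPKM with solvent (limma log2 fold change -0.14, SE 0.083, adjusted p = 0.405). Eif5a2, its rare copy, was at 2.81, 3.38 and 2.96 FPKM with CBR-5884, against 2.29 and 2.57 FPKM with solvent (limma log2 fold change 0.24, SE 0.10, adjusted p = 0.301). The groups of both genes did not overlap, in opposite directions. Eif6, which keeps the large ribosomal subunit from joining too early, was at 36.6, 39.7 and 39.8 FPKM with CBR-5884, against 48.7 and 44.4 FPKM with solvent (limma log2 fold change -0.26, SE 0.069, adjusted p = 0.174). A single reference transcript, Eif6-201, gave its whole value.

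Cufflinks divided the reads of a gene between reference and assembled transcripts, and it did so differently from library to library. Of the 50 tested genes 28 drew their whole value from reference transcripts in all 5 libraries. In 21 the share from assembled transcripts differed by over 10 percentage points between libraries. Weighted by transcript length, a setting chosen after the data were seen, 15 of the 50 genes had an unadjusted p below 0.05 (30%), 3 higher and 12 lower, against 24.5% of all genes tested (9.13% higher and 15.4% lower). Without scaling between libraries, all 3 CBR-5884 libraries then lay below both solvent libraries for 22 of the 50 (44%, against 27.6% of all genes tested). They lay above both for 7 (14%, against 18%), and 30 genes had a negative log2 fold change (60%, against 56%). None of the 50 was called, against 65 of 10770 genes (0.604%), and the smallest adjusted p was 0.108, for Eif4b. The eIF3 median stayed at -0.14, with 10 of 13 negative and 5 of 13 at an unadjusted p below 0.05. Transcript sequence sets a further limit: 9 of the 50 genes share over 10% of their 75-base windows with other genes, and 14 overlap exons on the opposite strand. Some overlap exons on the same strand, among them Eif5 with Snora28 (127 nt) and Eif4a1 with Gm22988 (144 nt).

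The other genes of translation were read from 4 lists in the same fit, with levels not scaled between libraries unless stated. The elongation list held 9 genes. They were the factors Eef1a1, Eef1b2, Eef1d, Eef1g, Eef2 and Eefsec, and the related genes Eef1e1, Eef2k and Tpt1. None was called. In all, 3 were positive, Eef1e1 and Eef2k among them, and 6 negative, Tpt1 among them. The median log2 fold change was -0.15, or -0.25 with reference transcripts only and -0.096 after quantile normalization. All 3 CBR-5884 libraries lay below both solvent libraries for 5 and above for 0 of the 9, against 24.9% and 16.6% of all genes tested. Eef1b2, an exchange factor for the elongation factor that delivers tRNA, was at 239.5, 245 and 239 FPKM with CBR-5884, against 291 and 281 FPKM with solvent (limma log2 fold change -0.25, SE 0.040, adjusted p = 0.122). Eef2, the translocation factor, was at 433, 416 and 435 FPKM with CBR-5884, against 546 and 494 FPKM with solvent (limma log2 fold change -0.28, SE 0.059, adjusted p = 0.14). Eef1a1, the most abundant of the list, was at 1912, 1846 and 1837 FPKM with CBR-5884, against 2002 and 1844 FPKM with solvent, with overlapping groups. Eef2 and Eef1a1 were chosen after their values were seen.

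Of 11 tested genes of termination, recycling and poly(A) binding none was called, with 7 positive and 4 negative and a median of 0.049. The CBR-5884 libraries lay below both solvent libraries for 3 and above for 3 of the 11, against 24.9% and 16.6% of all genes tested. Pabpn1, the nuclear poly(A)-binding protein, was at 34.7, 34.8 and 36.1 FPKM with CBR-5884, against 45.2 and 44.3 FPKM with solvent (limma log2 fold change -0.34, SE 0.045, adjusted p = 0.101).

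Of 19 tested genes of mTORC1 and its regulators none was called, with 9 positive and 10 negative. Their median of -0.0040 was 0.040 on the TPM scale, 0.027 with median-ratio scaling and 0.036 after quantile normalization, and -0.15 with reference transcripts only. The CBR-5884 libraries lay below both solvent libraries for 4 and above for 1 of the 19, against 24.9% and 16.6% of all genes tested. Mlst8, a core subunit of the kinase complex, was at 4.82, 4.30 and 4.15 FPKM with CBR-5884, against 7.30 and 7.31 FPKM with solvent (limma log2 fold change -0.62, SE 0.077, adjusted p = 0.0917). Of the 13 initiation-associated genes none was called, with 8 positive and 5 negative and a median of 0.011, or 0.052 on the TPM scale. Their CBR-5884 libraries lay below both solvent libraries for 3 and above for 3 of the 13, against 24.9% and 16.6% of all genes tested. Abcf1, an ATPase that binds eIF2, was at 25.7, 27.5 and 26.9 FPKM with CBR-5884, against 31.6 and 33.5 FPKM with solvent (limma log2 fold change -0.28, SE 0.055, adjusted p = 0.132).

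**Figure D5:**
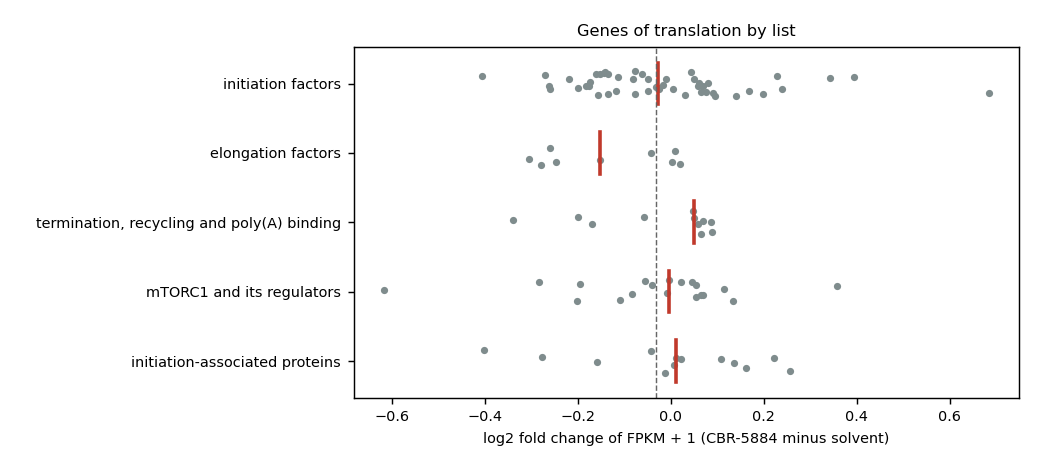
Log2 fold change of FPKM + 1 (CBR-5884 minus solvent) of each tested gene by list, with the list's median as a red bar and the median of all genes tested as a dashed line; the vertical scatter within a list carries no value, and Eif2b4 is counted in its median but not drawn. The median of the initiation factors, -0.029, lies on the dashed line and that of the elongation factors and related genes lies at -0.15.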

How the data were processed

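RNA abundance was measured in 5 single-read libraries of 75 bp from a directional kit, per the labels' protocols. Bowtie2, TopHat2, Cufflinks and build mm10 (GRCm38) are named in the submitters' processing notes; neither versions nor the use of strand are stated there. Deposited values are Cufflinks FPKM per library, as the files show, for Ensembl and assembled transcripts. No normalization between libraries is recorded.

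GENCODE M21 gave the gene of each reference transcript (70923 of 71311 matched, 99.5%). An assembled transcript of at least 200 nt went to the gene on its strand covering at least 50% of its exonic bases, and gene FPKM was the sum. Transcripts left out held 64.0% to 70.3% of summed FPKM but 8.55% to 10.2% of covered bases. Genes with a mean of at least 1 FPKM were fitted with limma 3.58.1 in R 4.3.3 (2-sided, with a variance trend), using log2(FPKM + 1) and calling genes at a Benjamini-Hochberg adjusted p below 0.05 over all genes tested. The fit was checked on simulated data. No 2 libraries held identical values, and Pearson's r of log2 values across genes, which are not independent replicates, ran between 0.925 and 0.937 within groups, and between 0.911 and 0.928 across them.

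The members and lists were chosen with earlier results of these data known. Values per library were given by rule for the most abundant gene and the gene with the smallest p of each role group, genes listed at 0 in 1 group alone and paralog pairs, and for other genes by choice afterwards. Alternatives changed the pseudocount, filter, scaling, transcripts used and limma options, left out each library, or added the replicate number.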

Additional observations from a re-analysis of the deposited data

How the results depend on the processing

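None of the tested initiation factor genes was called in any of the 19 alternatives. The smallest limma adjusted p was 0.0569, for Eif4ebp2 without CBR-5884 replicate 5. In the CBR-5884 libraries left there, replicates 3 and 4, the locus was represented by 2 transcripts whose FPKM were summed. Weighted by length over all libraries, its log2 fold change was -0.030. The number of all genes called was 24 and became 38 with no filter on low values, 9 at a mean of at least 5 FPKM, 39 with reference transcripts only and 65 with length-weighted levels; leaving out 1 library gave 19 to 89, with 89 without solvent replicate 3 and 66 without solvent replicate 5. The 10 initiation factor genes at an unadjusted p below 0.05 became 4 with reference transcripts only and with the most abundant reference transcript. Over all genes tested the share also fell, from 19.6% to 13.6% and 12.4%. Without 1 CBR-5884 library there were 8 to 10 such initiation factor genes, with shares over all genes of 14.2% to 16.2%. Without either solvent library the number was lower, but such a fit leaves 1 solvent library, so no count is given. For all tested initiation factor genes the median log2 fold change was 0.015 on the TPM scale, 0.0026 with median-ratio scaling and 0.019 after quantile normalization, and -0.055 to -0.012 without 1 library. The eIF3 median was -0.093, -0.10 and -0.096 in those scalings and -0.11 with reference transcripts only and with the most abundant one. The cause was not tested.

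Replicate numbers 3 and 5 occur in both groups. Deviations of same-numbered libraries from their group means correlated at 0.070 and 0.082. The deviations of the solvent libraries mirror each other, so the pairs with different numbers gave -0.070 and -0.082. These correlations therefore cannot decide whether same-numbered libraries share an animal or culture, which was not tested. With the replicate number as a block, 3 genes were called over all genes. An unadjusted limma p below 0.05 was then found for 4 initiation factor genes, against 13.9% of all genes tested.

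The sign of these log2 fold changes turned. Eif2s3x was at 0.012, 0.00016 and 0.019 and Eif4a2 at 0.034, 0.021 and 0.035 on the TPM scale, with median ratios and with quantiles. With the most abundant reference transcript Eif2s2 was at -0.057, Eif3d at 0.26, Eif4a1 at -0.0062, Eif4e at -0.17 and Eif5a at 0.017. With reference transcripts only Eif3d was at 0.26 and Eif4a1 at -0.0062, and Eif4a1 was at that value also with assembled transcripts of at least 300 nt. With the replicate block Eif3j1 was at -0.0047, and with length weighting Eif4ebp2 at -0.030. Leaving out 1 library put Eif1b between -0.029 and 0.047, Eif3j1 between -0.038 and 0.13, Eif4a1 between -0.047 and 0.17 and Eif4a2 between -0.068 and 0.047. Depth is known only as implied fragments, so no counting interval is given. Among the other genes described, Eif4g1 was at 1.91 with reference transcripts only and 2.03 with the most abundant one, where Eif4g3 was at 0.44. Eif3a, Eif4e2 and Eif4enif1 were positive on the TPM scale, with median ratios and with quantiles.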

Other observations

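Eif4ebp1, an eIF4E-binding protein gene outside the set described, had levels of 19.7, 20.4 and 20.1 FPKM in CBR-5884 libraries, against 18.4 and 21.1 FPKM in solvent libraries. Of the 11 genes with a family name that are not annotated as protein-coding, 2 had a mean of at least 1 FPKM. Eif3s6-ps2, a pseudogene, was listed at 2.55, 0 and 0 FPKM in CBR-5884 libraries, against 2.29 and 2.43 FPKM in solvent libraries, and Eif5al3-ps was listed at 1.36, 0.909 and 1.34 FPKM in CBR-5884 libraries, against 1.09 and 0.940 FPKM in solvent libraries.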
